A study of Mus musculus with 90 samples.

Results

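Tumours that stopped changing in size under PD-L1 blockade were compared with tumours that shrank under the same antibody. The comparison took the arrays whose title numbers begin with the same digits as those of the Stabilization tumours and set 3 Stabilization tumours against 10 Responder tumours, 13 of the 90 arrays of the series. All were subcutaneous melanoma allografts with the genotype Hgftg;Cdk4R24C/R24C in B6.cBrd mice. Hgftg is a transgene for hepatocyte growth factor, and R24C is a knock-in change of the cell cycle kinase Cdk4. All 13 had received 10 mg/kg of a mouse IgG1 antibody to PD-L1 whose constant region carries the change D265A. Stabilization tumours belonged to the Responder design but showed no change of volume between 2 consecutive measurements. Responder tumours had lost at least 5% of their volume. Stabilization, Responder and NonResponder tumours were taken after 2 to 12 doses. In the same title range, 9 NonResponder tumours that had the same antibody give levels for context. The 3 Relapse tumours of that range had the same antibody, with 4 to 10 doses, and enter only the estimate of spread. Nothing in the labels says that the arrays come from separate mice, and the p-values then describe only the spread among these samples.

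PD-L1 on tumour and myeloid cells binds PD-1 on T cells and restrains them, and antibodies to PD-L1 release this brake. T cells that recognise tumour antigen secrete interferon gamma, which raises antigen presentation and PD-L1 itself in neighbouring cells. Treated tumours also hold macrophages, neutrophils, fibroblasts and vessels, whose proteases, chemokines and matrix are those of wound repair.

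The question was whether a tumour that holds its size differs in expression from a shrinking one. No gene passed the test. Of 18193 genes, 0 had an adjusted p under 0.05 by limma, and the smallest adjusted p was 0.849. At an unadjusted p under 0.05 there were 792 genes (4.35% of those tested), 492 of them higher (2.7%) and 300 lower (1.65%) in Stabilization tumours. The mean of the Stabilization arrays lay more than 2-fold above that of the Responder arrays for 143 genes (0.786%) and more than 2-fold below it for 63 genes (0.346%). The median difference over all genes was -0.03 on the log2 scale, and the median standard error of a difference was 0.17. All differences below are Stabilization minus Responder on the log2 scale.

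Over genes, the stabilized tumours correlated with each other at 0.970 (1 with 2), 0.960 (2 with 3) and 0.923 (1 with 3). These lay under the median of 0.984 among pairs of Responders, but such pairs ran from 0.876 to 0.994. Without Responders 3 and 4 they ran from 0.980 to 0.994. The median SD of a gene was 0.24 over Stabilization arrays and 0.27 over Responder arrays (0.19 without Responders 3 and 4). Stabilization 1 correlated with the 10 Responder arrays at 0.912 to 0.952, all under its correlation with Stabilization 2, Stabilization 2 at 0.956 to 0.984, and Stabilization 3 at 0.883 to 0.994. Stabilization 1 exceeded every Responder array at 2122 genes (11.7%) and lay below every one at 2060 (11.3%). Stabilization 2 did so at 598 and 915 genes, and Stabilization 3 at 1126 and 981. For genes both outside the Responder range and more than 2-fold from the Responder median, Stabilization 1 had 779 above and 500 below. Stabilization 2 had 81 above and 8 below, and Stabilization 3 had 22 above and 101 below. Correlation with all other arrays averaged under 0.95 for 3 of these 13 arrays, which were Stabilization 1, Responder 3 and Responder 4. Without these 3 arrays (2 Stabilization, 8 Responder) limma again called 0 genes, with 554 (3.05%) at an unadjusted p under 0.05, 1.46% of all genes higher and 1.58% lower, and a smallest adjusted p of 0.373. That gene was Bmp2, a bone morphogenetic protein named here after its values were seen, at 5.94, 5.63 and 6.02 in Stabilization 1, 2 and 3, against a Responder median of 4.85 (lowest 4.35, highest 7.63, in Responder 4).

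The number of called genes changed with the arrays included. Leaving out Stabilization 3 gave 273 called genes, 178 higher (0.978%) and 95 lower (0.522%). Leaving out Stabilization 1 gave 0 called and only 81 genes at an unadjusted p under 0.05. Leaving out Stabilization 2 gave 0 called, and leaving out Responders 3 and 4 together, a choice made after seeing the data, gave 13.

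**Figure D1:**
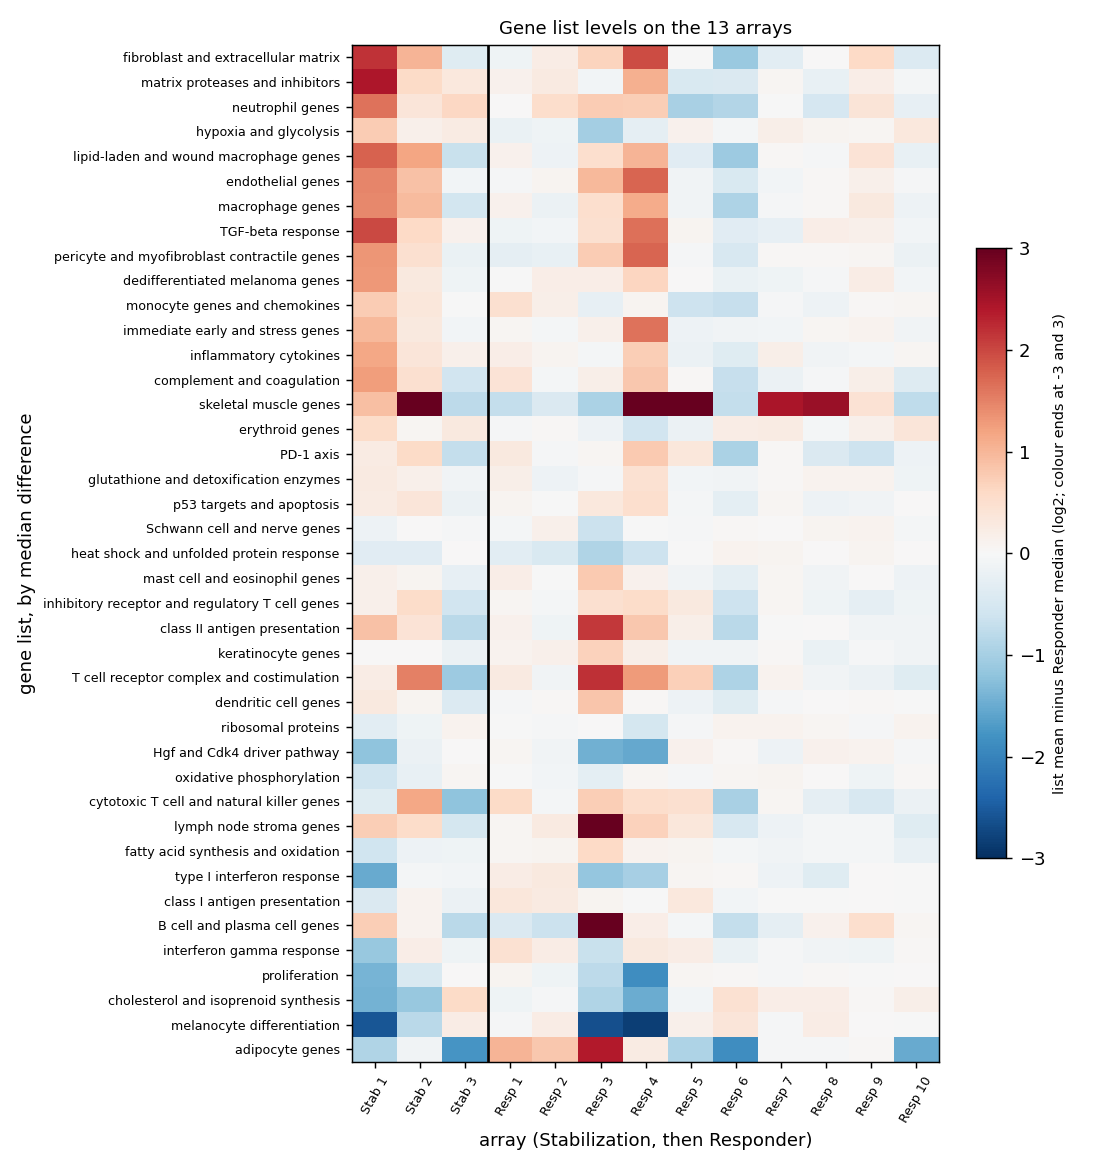
Mean log2 level of each of 41 gene lists on the 13 arrays, as the offset from the Responder median (red above, blue below, colours ending at -3 and 3). Columns are Stabilization 1 to 3 and then Responder 1 to 10, and lists are ordered by their median difference; Stabilization 1 shares its low pigment level with Responders 3 and 4, while Stabilization 3 sits at the low end for T cell genes.

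The tumours' own genes set the arrays apart. For the 15 measured of 16 melanocyte differentiation genes, which define the pigment cell lineage, the mean level was 6.94, 8.70 and 9.73 in Stabilization 1, 2 and 3. In Responder tumours it ranged from 6.69 to 9.87 with a median of 9.51. Responder 3 (6.87) and Responder 4 (6.69) were as low as Stabilization 1, and the other 8 Responders lay between 9.47 and 9.87. By these markers Stabilization 3 carries the lineage of its melanoma label. Stabilization 2 lay between, under the other 8 Responders but above Stabilization 1, Responder 3 and Responder 4. For Stabilization 1, Responder 3 and Responder 4 these markers go against the label, so it is uncertain how much melanoma tissue these arrays hold, and this bears on every value from them. For Stabilization 2 the same doubt holds to a lesser extent. Mlana, a melanosomal antigen, was at 5.68, 8.09 and 10.22 in Stabilization 1, 2 and 3, against a Responder median of 10.14 (lowest 6.00, highest 11.08). Its difference was -1.48 ± 0.89 (SE; adjusted p = 0.984, limma), and -1.19 ± 0.39 without the arrays of low correlation. Gpr143, a receptor of the melanosome membrane, was at 3.69, 3.93 and 6.65 in Stabilization 1, 2 and 3, against a Responder median of 5.79 (lowest 3.27, highest 7.14). Both genes followed the same order, lowest in Stabilization 1 and highest in Stabilization 3.

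The transgene's gene and its receptor were also low in Stabilization 1, Responder 3 and Responder 4. Hgf was at 6.93, 10.62 and 11.45 in Stabilization 1, 2 and 3, against a Responder median of 10.98, with 6.34 in Responder 3 and 5.63 in Responder 4. Met, the receptor of hepatocyte growth factor, was at 8.86, 11.70 and 12.58 in Stabilization 1, 2 and 3, against a Responder median of 12.42, with 8.88 in Responder 3 and 9.05 in Responder 4. Cdk4 was at 10.00, 10.42 and 11.30 in the 3 Stabilization arrays, against a Responder median of 11.08 (lowest 9.54, highest 11.41). The groups overlapped at all 3 genes. In bulk tumour RNA, fewer cells of a type and less RNA per cell cannot be told apart, and this holds for every gene below. The other probe sets for Hgf gave differences up to 0.60, of opposite sign to the -0.35 of the one used.

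Cell division genes averaged lower in Stabilization 1 as well. The mean of 19 proliferation genes was 8.87, 9.81 and 10.28 in Stabilization 1, 2 and 3, against a Responder median of 10.26 (lowest 8.40, in Responder 4). Responder 3 was at 9.49, and the other 8 Responders lay between 10.14 and 10.35. All 19 had a lower Stabilization mean, and 0 of 19 had an unadjusted p under 0.05. The median difference was -0.38, -0.23 without the arrays of low correlation and 0.01 without Stabilization 1. Mcm5, a subunit of the replication helicase, was at 9.58, 11.05 and 11.21 in the Stabilization arrays, against a Responder median of 11.28. Rrm2, a subunit of ribonucleotide reductase, was at 9.88, 11.16 and 11.64 in the Stabilization arrays, against a Responder median of 11.65. Stabilization 3 lay close to the Responder median for both genes.

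**Figure D2:**
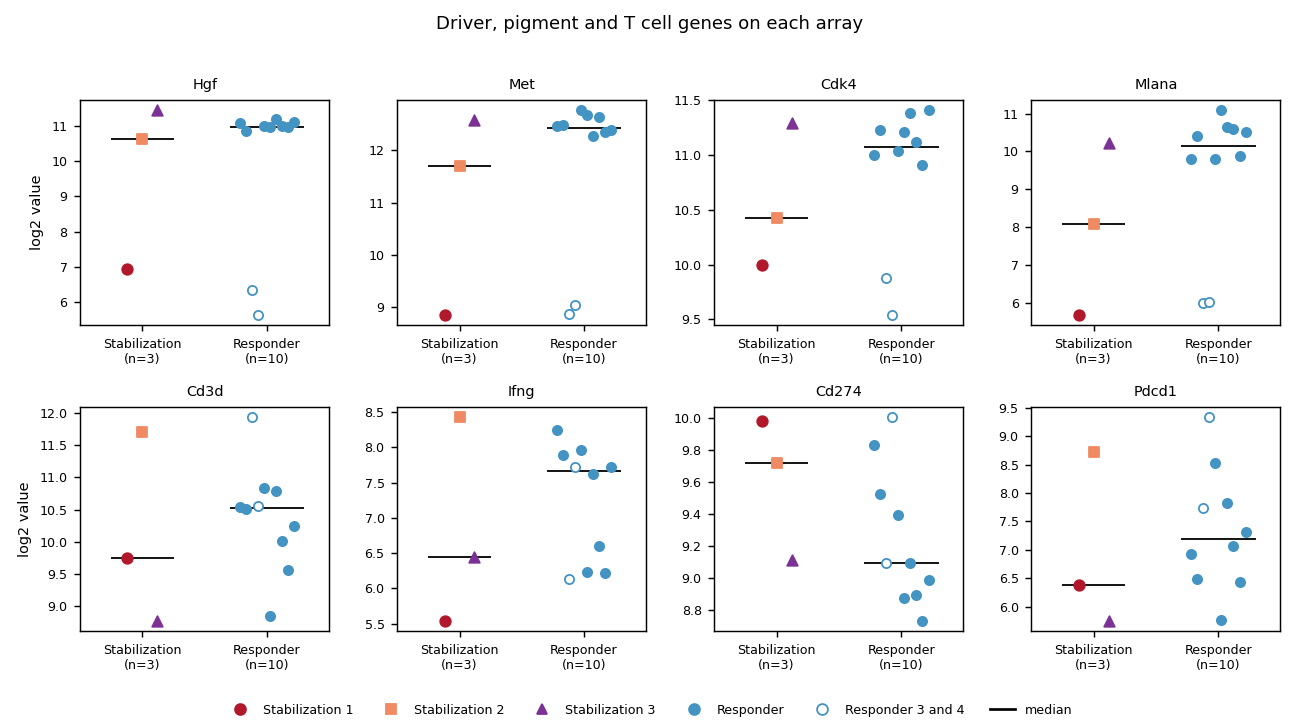
Log2 level of Hgf, Met, Cdk4, Mlana, Cd3d, Ifng, Cd274 and Pdcd1 on each array, Stabilization left and Responder right, with group medians as lines and Responders 3 and 4 as open circles. Stabilization 1 lies with the open circles for Hgf, Met and Mlana, and Stabilization 2 has the highest Ifng value of the 13 arrays, 8.43.

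Inhba, the subunit of activin A, had the smallest p among the genes higher in Stabilization tumours. It was at 10.46, 6.30 and 6.85 in Stabilization 1, 2 and 3. The Responder arrays had a median of 5.65 (lowest 5.50, highest 6.69, in Responder 4), so only Stabilization 2 lay inside their range. It averaged 7.87 ± 2.26 in Stabilization tumours and 5.78 ± 0.35 in Responder tumours (SD, n = 3 and 10). The difference was 2.09 ± 0.48 (SE; limma, adjusted p = 0.977), a 4.24-fold ratio, and 0.91 ± 0.20 without the arrays of low correlation. The other probe set of Inhba gave -0.12, so this result rests on 1 of 2 probe sets. Timp1, an inhibitor of matrix metalloproteinases, was at 13.10, 10.31 and 10.83 in Stabilization 1, 2 and 3, against a Responder median of 9.40 (lowest 8.48, highest 11.63, in Responder 4). Its difference was 1.90 ± 0.49 (SE; adjusted p = 0.984), and 1.31 ± 0.33 without the arrays of low correlation. All 3 Stabilization arrays lay above every Responder except Responder 4.

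All 15 matrix proteases and inhibitors had a higher Stabilization mean, with a median difference of 0.82, and 10 of 15 had an unadjusted p under 0.05 in that direction, where 2.7% of all genes did. Their mean level was 10.40, 8.55 and 8.31 in Stabilization 1, 2 and 3, against 7.53 to 9.04 in Responder tumours (median 7.98). The median difference was 0.29 without the arrays of low correlation, where 3 of 15 and 1.46% of all genes had such a p. It was 0.27 without Stabilization 1. When Stabilization 3 was left out, 4 of 15 were called higher, as were 0.978% of all genes. Serpinb2, which inhibits the plasminogen activator urokinase, was at 11.57, 6.63 and 9.43 in Stabilization 1, 2 and 3. Responder tumours had a median of 6.18 (lowest 3.85, highest 7.78), so Stabilization 1 and 3 lay above the whole range and Stabilization 2 inside it. The difference was 3.15 ± 0.95 (adjusted p = 0.984, limma), an 8.85-fold ratio, and 2.15 ± 1.03 without the arrays of low correlation. Plau, urokinase itself, was at 7.49, 6.15 and 5.56 in Stabilization 1, 2 and 3, against a Responder median of 5.52 (lowest 4.72, highest 6.23). Mmp10, which cleaves matrix proteins, was at 8.81, 6.03 and 5.78 in the Stabilization arrays, against a Responder median of 5.55 (lowest 5.36, highest 6.06). For Plau and Mmp10 only Stabilization 1 stood above the Responders.

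Neutrophil genes averaged higher too. Of 15 measured, 13 had a higher Stabilization mean and 5 an unadjusted p under 0.05 in that direction, where 2.7% of all genes did. The median difference was 0.78, and 0.29 without Stabilization 1. Without the arrays of low correlation it was 0.48, and 3 of 15 had such a p, against 1.46% of all genes. These genes averaged 7.81, 6.54 and 6.81 in Stabilization 1, 2 and 3, against 5.21 to 6.96 in Responder tumours. Cxcl5, a ligand of the neutrophil receptor Cxcr2, was at 8.92, 6.02 and 5.75 in Stabilization 1, 2 and 3. In Responder tumours its median was 4.36 (lowest 3.62), with 6.32 in Responder 2 and 6.42 in Responder 4 and the other 8 under the Stabilization arrays. The difference was 2.31 ± 0.61 (adjusted p = 0.984, limma), a 4.96-fold ratio, and 1.55 ± 0.54 without the arrays of low correlation. Cxcl2, another ligand of Cxcr2, was at 10.89, 8.68 and 9.90 in Stabilization 1, 2 and 3, against a Responder median of 8.03 (lowest 5.48, highest 9.66). Cxcl3, a further such ligand, was at 8.14, 6.13 and 6.24 in the Stabilization arrays, against a Responder median of 5.00 (lowest 3.03, highest 6.45). Mmp8, the neutrophil collagenase, was at 8.29, 6.42 and 5.97 in the Stabilization arrays, against a Responder median of 5.86 (lowest 5.64, highest 6.53). Stabilization 1, with its melanocyte mean of 6.94, was above all Responders for each of these 4 genes, and Stabilization 3 for Cxcl2.

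The sequence before the start of protease and chemokine genes was read because these genes lay high together in Stabilization 1. The 4 shown are those that hold a match to a motif searched. Windows of 250 bases before the gene start, from RefSeq on build GRCm38.p6, were read for 8 protease and chemokine genes, 6 of which are in the table used. Both strands were searched for TGANTCA, the AP-1 motif, present in 6.75% of 32851 such windows, and for a kappa B motif, GGGA followed by any 2 bases and TTCC, present in 1.21%. Capitals mark matches, and on the windows of Cxcl2 and Cxcl3 a pair of kappa B matches on opposite strands overlap. All 4 genes lie on the plus strand, with windows at chr1:107511173-107511422, chr9:7502092-7502341, chr5:90903649-90903898 and chr5:90785851-90786100. The AP-1 match begins 94 bases before the start of Serpinb2 and 63 before that of Mmp10, and the kappa B match 97 bases before the start of Cxcl2 and 73 before that of Cxcl3.
Serpinb2: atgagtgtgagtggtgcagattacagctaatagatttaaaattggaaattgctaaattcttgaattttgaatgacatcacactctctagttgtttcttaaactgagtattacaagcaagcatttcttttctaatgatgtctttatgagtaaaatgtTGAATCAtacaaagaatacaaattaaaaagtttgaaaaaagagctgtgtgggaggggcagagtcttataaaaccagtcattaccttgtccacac
Mmp10: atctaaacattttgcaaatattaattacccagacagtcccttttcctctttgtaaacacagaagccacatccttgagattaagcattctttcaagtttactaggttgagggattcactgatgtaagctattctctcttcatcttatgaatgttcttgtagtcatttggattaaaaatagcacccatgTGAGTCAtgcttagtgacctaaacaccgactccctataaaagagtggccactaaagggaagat
Cxcl2: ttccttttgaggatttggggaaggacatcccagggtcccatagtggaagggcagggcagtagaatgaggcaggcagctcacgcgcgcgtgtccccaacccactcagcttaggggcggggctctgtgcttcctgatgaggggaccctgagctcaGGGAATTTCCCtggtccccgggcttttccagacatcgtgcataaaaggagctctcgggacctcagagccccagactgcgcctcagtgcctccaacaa
Cxcl3: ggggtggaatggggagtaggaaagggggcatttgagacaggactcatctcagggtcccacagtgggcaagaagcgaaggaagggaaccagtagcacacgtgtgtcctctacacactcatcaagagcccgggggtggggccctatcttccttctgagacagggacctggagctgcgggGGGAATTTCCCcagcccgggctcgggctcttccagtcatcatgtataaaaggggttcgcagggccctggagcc
Neither motif is in the windows of Timp1 and Mmp8. A match is a description of the letters and was not tested as a binding site.

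Inflammatory mediators were also highest in Stabilization 1, the stabilized tumour with the lowest melanocyte mean (6.94). All 16 had a higher Stabilization mean, 4 with an unadjusted p under 0.05, where 2.7% of all genes had one in that direction. The median difference was 0.24 (0.10 without the arrays of low correlation and 0.07 without Stabilization 1). Ptgs2, the inducible enzyme of prostaglandin synthesis, was at 10.15, 6.88 and 8.32 in Stabilization 1, 2 and 3, against a Responder median of 6.03 (lowest 5.50, highest 8.85). Its difference was 2.12 ± 0.61 (adjusted p = 0.984, limma), and 1.48 ± 0.50 without the arrays of low correlation. Responder 4 held the highest Responder value, and Responder 1 (7.22) was the only other one above Stabilization 2. Il11, an interleukin 6 family cytokine, was at 8.95, 5.10 and 5.95 in Stabilization 1, 2 and 3, against a Responder median of 5.52 (lowest 5.18, highest 5.71). Il33, an alarmin released by stromal cells, was at 12.10, 9.81 and 9.40 in the Stabilization arrays, against a Responder median of 8.87 (lowest 7.78, highest 10.62). Edn1, the vasoconstrictor endothelin 1, was at 8.14, 6.83 and 7.02 in the Stabilization arrays, against a Responder median of 6.52 (lowest 6.34, highest 6.86). The Edn1 difference was 0.81 ± 0.19 (adjusted p = 0.977, limma), and 0.40 ± 0.16 without the arrays of low correlation.

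**Figure D3:**
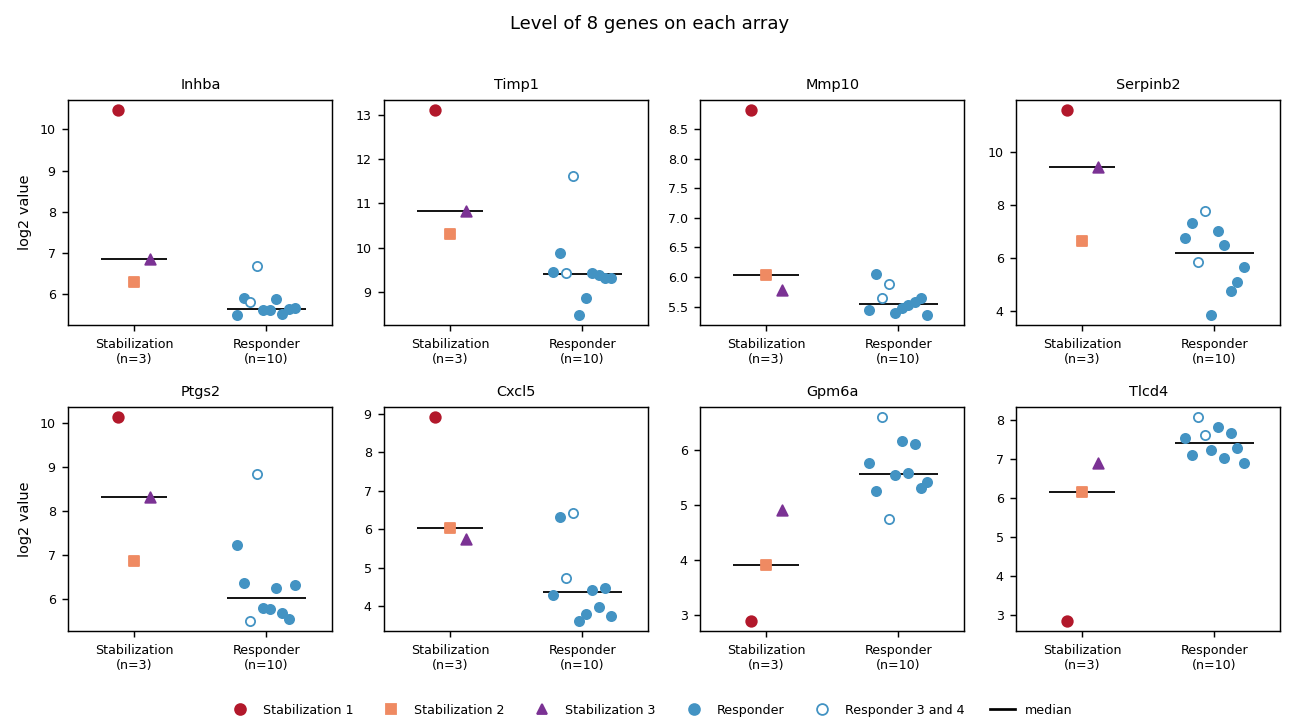
Log2 level of 8 genes on each array, with Stabilization arrays as a circle (1), square (2) and triangle (3) at left and Responder arrays at right, and group medians as lines. Stabilization 1 is the highest array for Inhba, Timp1, Mmp10, Serpinb2, Ptgs2 and Cxcl5 and the lowest for Gpm6a and Tlcd4.

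The TGF-beta response genes, 13 measured, all had a higher Stabilization mean. Their median difference was 0.45, 0.28 without the arrays of low correlation and 0.04 without Stabilization 1. Of the 13 genes, 4 had an unadjusted p under 0.05 with all arrays and 5 without those of low correlation. The shares of all genes higher at such a p were 2.7% and 1.46%. Ccn2, a matricellular protein, was at 12.87, 10.52 and 10.58 in Stabilization 1, 2 and 3, against a Responder median of 9.65 (lowest 8.92, highest 11.60). Thbs1, which activates latent TGF-beta, was at 12.52, 9.29 and 8.90 in the Stabilization arrays, against a Responder median of 8.47 (lowest 7.68, highest 10.69). Skil, a repressor of Smad proteins, was at 11.27, 10.54 and 10.39 in the Stabilization arrays, against a Responder median of 10.14 (lowest 9.84, highest 11.06). The highest Responder value was that of Responder 4 for all 3 genes, and only Stabilization 1 exceeded it; these are the arrays with melanocyte means of 6.69 and 6.94.

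With all arrays, fibroblast and matrix genes had the largest median difference of the 41 lists, 0.84. All 20 members were higher in the Stabilization mean and 4 had an unadjusted p under 0.05. Of all genes, 2.7% were higher at such a p. The matrix list mean was 12.50, 11.34 and 9.96 in Stabilization 1, 2 and 3, against a Responder median of 10.33 (lowest 9.21, highest 12.29, in Responder 4). The median difference was 0.53 without the arrays of low correlation and 0.16 without Stabilization 1, and in both settings the skeletal muscle list had a larger one (0.96 and 0.56). Lox, which cross-links collagen, was at 12.37, 10.22 and 9.81 in Stabilization 1, 2 and 3, against a Responder median of 9.03 (lowest 7.90, highest 11.29). Col5a2, a collagen chain, was at 13.42, 11.98 and 10.87 in the Stabilization arrays, against a Responder median of 10.89 (lowest 9.84, highest 13.07). Fn1, fibronectin, was at 13.45, 12.22 and 12.14 in the Stabilization arrays, against a Responder median of 11.96 (lowest 11.33, highest 12.85). Endothelial genes averaged 8.40, 7.81 and 6.85 in Stabilization 1, 2 and 3, against a Responder median of 6.94 (lowest 6.47, highest 8.68), and 11 of 13 had a higher Stabilization mean, 3 of them with an unadjusted p under 0.05. The median difference of the endothelial list was 0.57, and 0.47 without the arrays of low correlation, where 5 of 13 had such a p. In that setting 1.46% of all genes were higher at such a p. Cdh5, the cadherin of vessel walls, was at 9.13, 8.59 and 6.81 in the Stabilization arrays, against a Responder median of 6.84 (lowest 6.29, highest 9.63). Flt1, a receptor of vascular growth factor, was at 7.997, 7.12 and 6.72 in the Stabilization arrays, against a Responder median of 6.55 (lowest 6.32, highest 7.62). Stabilization 3 lay close to the Responder median for Col5a2 and Cdh5. Stabilization 1 and Responder 4, the highest arrays for the matrix list, also had low melanocyte list means of 6.94 and 6.69. The part of this in the proliferation, protease, neutrophil, inflammatory, TGF-beta, matrix, vessel, macrophage, interferon, oxidative phosphorylation and cholesterol synthesis differences was not tested.

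Macrophage genes separated Stabilization 1 and 2 from Stabilization 3. All 17 had a higher Stabilization mean, 2 with an unadjusted p under 0.05, where 2.7% of all genes had one in that direction. The median difference was 0.48 (0.32 without the arrays of low correlation and 0.15 without Stabilization 1). The list mean was 11.78, 11.29 and 9.77 in Stabilization 1, 2 and 3, against a Responder median of 10.34 (lowest 9.42, highest 11.44). For genes of lipid-laden and wound macrophages it was 12.64, 12.05 and 10.21 in Stabilization 1, 2 and 3, against a Responder median of 10.87 (lowest 9.80, highest 11.89). Of these 16 genes, 6 had an unadjusted p under 0.05, and 4 passed the test, all higher, when Stabilization 3 was left out, as did 0.978% of all genes in that direction. Trem2, a lipid receptor of macrophages, was at 11.46, 10.73 and 8.54 in Stabilization 1, 2 and 3, against a Responder median of 8.99 (lowest 8.06, highest 9.98). Without Stabilization 3, the lowest of the 3 arrays for Trem2, its adjusted p was 0.00657 by limma. The same fit gave 0.99998 without Stabilization 1 and 0.9998 without Stabilization 2. No list gene was called in either of those settings, so the calls rest on which array was left out. The other probe set of Trem2 had a difference of -0.07 over all arrays. C3ar1, the receptor of complement fragment C3a, was at 11.55, 11.06 and 8.89 in the Stabilization arrays, against a Responder median of 9.55 (lowest 8.55, highest 10.15). Mmp12, macrophage elastase, was at 12.93, 11.74 and 9.32 in the Stabilization arrays, against a Responder median of 9.31 (lowest 7.78, highest 12.15). Stabilization 1 and 2 were above every Responder for Trem2 and C3ar1, and Stabilization 3 was close to or under the Responder median for all 3 genes.

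Arg1, the arginine-consuming enzyme of wound and suppressive myeloid cells, was at 13.86, 11.65 and 10.95 in Stabilization 1, 2 and 3, against a Responder median of 10.39 (lowest 8.26, highest 11.26). Its difference was 2.01 ± 0.61 (adjusted p = 0.984, limma), and 1.21 ± 0.67 without the arrays of low correlation. Cd14, the lipopolysaccharide co-receptor, was at 12.65, 9.66 and 9.26 in the Stabilization arrays, against a Responder median of 8.71 (lowest 7.95, highest 11.24, in Responder 4). All 3 Stabilization arrays lay above the other 9 Responders at Cd14. Atp6v0d2, a proton pump subunit of lysosome-rich macrophages, was at 11.44, 9.65 and 5.95 in the Stabilization arrays, against a Responder median of 6.59 (lowest 6.02, highest 9.98). Fcgr3, an activating Fc receptor, was at 12.55, 11.62 and 10.60 in the Stabilization arrays, against a Responder median of 10.89 (lowest 9.99, highest 12.00).

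The mean of the hypoxia and glycolysis genes lay above the Responder median in all 3 stabilized tumours. Of 15 measured, 14 had a higher Stabilization mean and 8 an unadjusted p under 0.05. Of all genes, 2.7% were higher at such a p. The median difference of the list was 0.60. Without the arrays of low correlation it was 0.12, with 0 of 15 at such a p. The list mean was 11.04, 10.44 and 10.52 in Stabilization 1, 2 and 3, against a Responder median of 10.27 (lowest 9.26, in Responder 3, and highest 10.58). Slc2a1, the glucose transporter of growing and oxygen-poor cells, was at 12.28, 10.70 and 10.66 in Stabilization 1, 2 and 3, against a Responder median of 10.32 (lowest 9.91, highest 10.58). It was the only member of the list, 1 of 15, whose groups did not overlap, and 0.0934% of all genes had Stabilization values above all Responders. Its difference was 0.88 ± 0.26 (adjusted p = 0.984, limma), and 0.27 ± 0.22 without the arrays of low correlation. Egln3, an oxygen-sensing prolyl hydroxylase, was at 11.22, 9.57 and 9.24 in the Stabilization arrays, against a Responder median of 8.71 (lowest 6.99, highest 9.63). P4ha1, a collagen prolyl hydroxylase, was at 10.60, 9.59 and 9.51 in the Stabilization arrays, against a Responder median of 9.35 (lowest 8.13, highest 9.64).

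**Figure D4:**
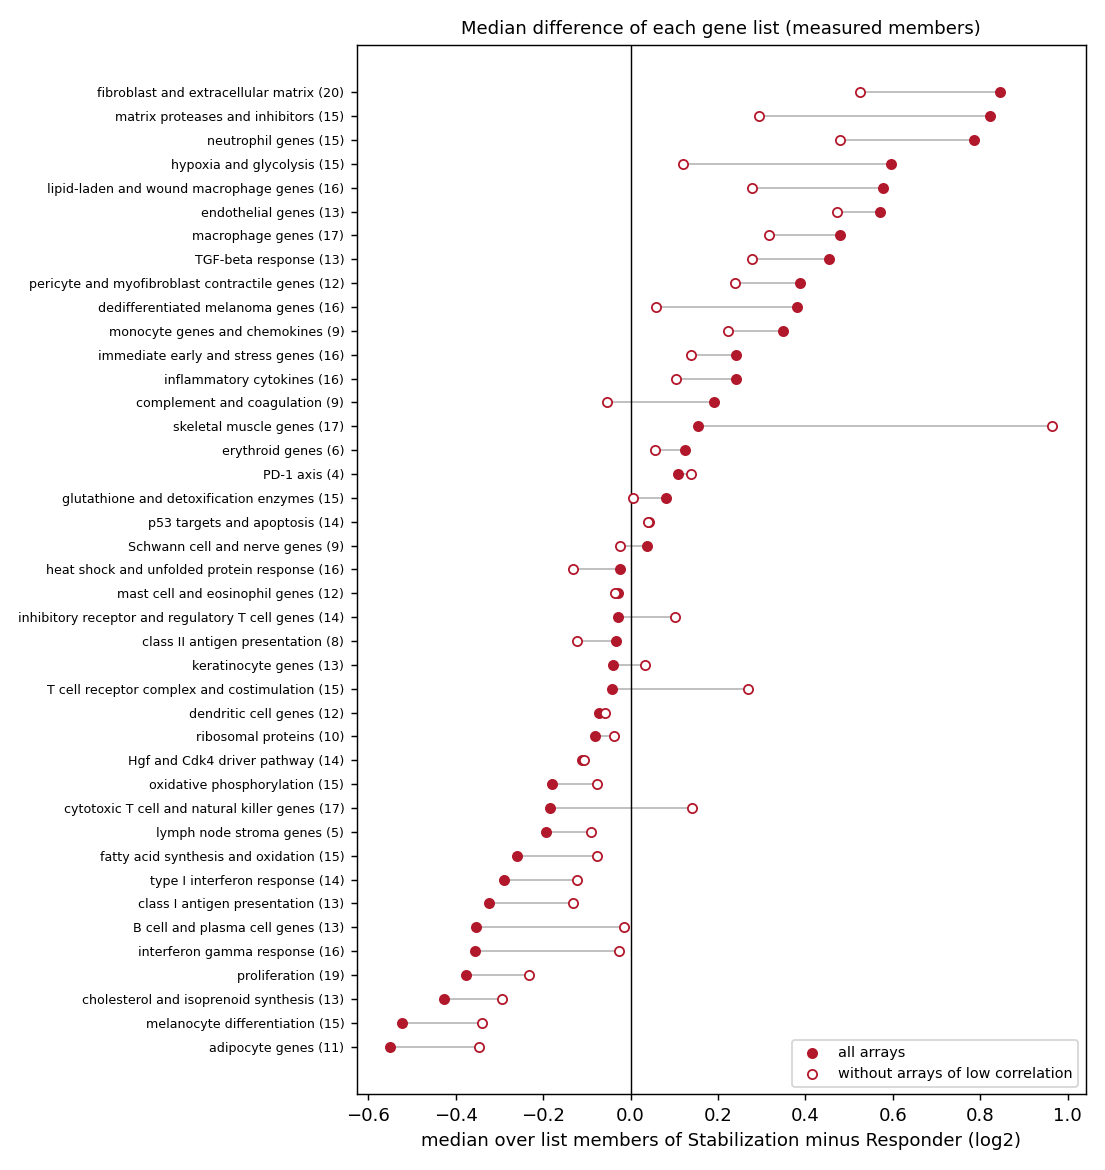
Median over the measured members of each gene list of the difference Stabilization minus Responder on the log2 scale, with all arrays (filled) and without the 3 arrays of low correlation (open). Matrix, protease and neutrophil lists lie furthest right with all arrays, at 0.84, 0.82 and 0.78, and all 3 move toward 0 without those arrays.

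T cell genes showed no common shift between the groups and a wide spread within each. The mean of 15 genes of the T cell receptor complex and costimulation was 7.57, 8.85 and 6.24 in Stabilization 1, 2 and 3, against a Responder median of 7.34 (lowest 6.42, highest 9.52). Stabilization 2 exceeded 9 of 10 Responders and Stabilization 3 exceeded 0. None of the 15 had an unadjusted p under 0.05, and their median difference was -0.04 with all arrays, 0.27 without those of low correlation, -0.79 without Stabilization 2 and 0.61 without Stabilization 3. Cd3d, a signalling chain of the T cell receptor, was at 9.74, 11.71 and 8.76 in Stabilization 1, 2 and 3, against a Responder median of 10.52 (lowest 8.84, highest 11.95). The cytotoxic and natural killer list averaged 7.88, 9.41 and 7.04 in Stabilization 1, 2 and 3, against a Responder median of 8.25 (lowest 7.27, highest 8.99), so Stabilization 2 stood above and Stabilization 3 below all Responders. Ifng, the gene of interferon gamma, was at 5.54, 8.43 and 6.44 in the Stabilization arrays, against a Responder median of 7.67 (lowest 6.14, highest 8.25). Gzma, a granzyme of killer cells, was at 8.68, 9.78 and 9.49 in the Stabilization arrays, against a Responder median of 9.98 (lowest 8.66, highest 12.06).

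The PD-1 axis had no member that passed the test. Cd274, the gene of PD-L1 itself, was at 9.98, 9.72 and 9.11 in Stabilization 1, 2 and 3, against a Responder median of 9.09 (lowest 8.73, highest 10.01). Its difference was 0.36 ± 0.21 (adjusted p = 0.984, limma). All 3 Stabilization arrays and all 10 Responders exceeded the highest NonResponder value of 8.53. Pdcd1, the gene of PD-1, was at 6.38, 8.72 and 5.74 in the Stabilization arrays, against a Responder median of 7.19 (lowest 5.76, highest 9.34). Pdcd1lg2, the second ligand of PD-1, was at 6.59, 7.07 and 5.80 in the Stabilization arrays, against a Responder median of 6.69 (lowest 5.22, highest 7.88). Cd80, a costimulatory ligand that also binds PD-L1, was at 6.47, 5.20 and 4.88 in the Stabilization arrays, against a Responder median of 4.99 (lowest 4.70, highest 5.18). The probe sets of Cd80 disagreed in sign, from -0.09 to 0.83. Ccr8, a chemokine receptor of regulatory T cells, was at 3.71, 3.87 and 3.72 in the Stabilization arrays. These lay below all Responders (lowest 3.88, median 4.20, highest 4.28), with a difference of -0.37 ± 0.14 (adjusted p = 0.984, limma). Stabilization 2 (3.871) was just under the lowest Responder (3.879), and all these levels are low for the arrays. The 14 measured inhibitory receptor and regulatory T cell genes were mixed, 6 with a higher and 8 with a lower Stabilization mean. Their median difference was -0.03.

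Interferon response genes were lowest in Stabilization 1, whose melanocyte mean of 6.94 was low too. All 16 interferon gamma response genes had a lower Stabilization mean, 0 with an unadjusted p under 0.05, at a median difference of -0.36 (-0.03 without the arrays of low correlation and 0.01 without Stabilization 1). On average these genes stood at 9.14, 10.47 and 10.12 in Stabilization 1, 2 and 3, against a Responder median of 10.26 (lowest 9.61, in Responder 3, and highest 10.71). Igtp, an interferon-inducible GTPase, was at 11.07, 12.31 and 11.96 in Stabilization 1, 2 and 3, against a Responder median of 12.13 (lowest 11.63). Ubd, a ubiquitin-like modifier, was at 8.32, 10.75 and 10.74 in the Stabilization arrays, against a Responder median of 10.81 (lowest 9.97). The type I interferon list averaged 8.60, 10.05 and 10.04 in Stabilization 1, 2 and 3, against a Responder median of 10.12 (lowest 8.95, highest 10.41). Its member Ifit3 was at 7.90, 10.25 and 10.64 in the Stabilization arrays, against a Responder median of 10.59 (lowest 8.92), and Irf7, the master regulator of type I interferon, was at 8.78, 10.67 and 10.07, against a Responder median of 10.35 (lowest 9.68). Stabilization 2 and 3 lay inside the Responder range at all 4 genes.

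All 13 class I antigen presentation genes had a lower Stabilization mean, 3 of them with an unadjusted p under 0.05, where 1.65% of all genes did. Their mean level was 11.33, 11.88 and 11.59 in Stabilization 1, 2 and 3, against 11.68 to 12.09 in Responder tumours, so Stabilization 1 and 3 lay below all Responders. The median difference was -0.32, and -0.13 without the arrays of low correlation. Psme1, an activator of the immunoproteasome, was at 11.31, 12.10 and 12.11 in Stabilization 1, 2 and 3, against a Responder median of 12.22 (lowest 11.71). Psmb10, a catalytic immunoproteasome subunit, was at 10.47, 11.52 and 11.44 in the Stabilization arrays, against a Responder median of 11.65 (lowest 10.89). Erap1, which trims peptides for class I molecules, was at 8.43, 8.84 and 8.75 in the Stabilization arrays, against a Responder median of 9.02 (lowest 8.59). Each of these 3 genes had all Stabilization values under the Responder median. Class II genes averaged 10.81, 10.32 and 9.11 in Stabilization 1, 2 and 3, against a Responder median of 9.92 (lowest 9.11, highest 12.04, in Responder 3).

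Among lower genes the smallest p-values belonged to Gpm6a and Tlcd4. Gpm6a, a neuronal membrane glycoprotein, was at 2.89, 3.91 and 4.91 in Stabilization 1, 2 and 3, against a Responder median of 5.57 (lowest 4.75, in Responder 4, and highest 6.61). Responder 4 was the only Responder under any Stabilization array. It averaged 3.91 ± 1.01 in Stabilization tumours and 5.65 ± 0.53 in Responder tumours (SD, n = 3 and 10). The difference was -1.74 ± 0.35 (limma, unadjusted p = 4.66e-05, adjusted p = 0.849), and -1.23 ± 0.32 without the arrays of low correlation, and both probe sets were lower. Tlcd4, a membrane protein with a TLC domain, was at 2.84, 6.14 and 6.90 in the Stabilization arrays, against a Responder median of 7.40 (lowest 6.89, highest 8.07). Its difference was -2.13 ± 0.47 (adjusted p = 0.977, limma), and -0.79 ± 0.27 without the arrays of low correlation. All 4 probe sets of Tlcd4 were lower, from -2.13 to -0.06. Among the 3 Stabilization arrays both genes kept the order of the pigment genes, lowest in Stabilization 1 and highest in Stabilization 3. Responder 3, with a low melanocyte mean of 6.87, was instead the highest Responder for both genes, at 6.61 and 8.07. Responder 4, with a melanocyte mean of 6.69, was the lowest Responder for Gpm6a but at 7.61 for Tlcd4.

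None of the other lower genes of smallest p passed the test either. Gpt, alanine aminotransferase, was at 7.38, 8.06 and 8.66 in Stabilization 1, 2 and 3, against a Responder median of 8.63 (lowest 8.50). Me1, the malic enzyme that supplies NADPH, was at 8.52, 9.48 and 9.66 in the Stabilization arrays, against a Responder median of 9.88 (lowest 9.59). Pdhb, a subunit of pyruvate dehydrogenase, was at 10.68, 11.02 and 11.50 in the Stabilization arrays, against a Responder median of 11.46 (lowest 11.28). For these 3 genes Stabilization 1 and 2 were below all Responders and Stabilization 3 was not. Prodh, which starts proline breakdown in mitochondria, was at 5.87, 6.24 and 6.61 in the Stabilization arrays, below all Responders (lowest 6.68, median 6.82). Ppif, cyclophilin D of the mitochondrial matrix, was at 7.43, 8.48 and 9.11 in the Stabilization arrays, against a Responder median of 9.08 (lowest 8.53), and Tsfm, a mitochondrial translation factor, was at 7.84, 8.12 and 8.55, against a Responder median of 8.64 (lowest 8.12). Klf15, a transcription factor of metabolic genes, was at 5.55, 7.55 and 8.62 in the Stabilization arrays, against a Responder median of 8.43 (lowest 7.57). The other 6 (Rbm20, Fbxo31, Tapt1, Polr2m, Tdrp and Rpa1) had differences from -1.02 (Tdrp) to -0.29 (Polr2m). All 15 lower genes of smallest p, Gpm6a and Tlcd4 included, were lower in Stabilization tumours without the arrays of low correlation too, from -1.23 to -0.17.

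Oxidative phosphorylation genes averaged 11.22, 11.61 and 11.89 in Stabilization 1, 2 and 3, against a Responder median of 11.83 (lowest 11.54, highest 11.90). All 15 had a lower Stabilization mean and 4 an unadjusted p under 0.05, where 1.65% of all genes were lower at such a p. The median difference was -0.18. Without the arrays of low correlation it was -0.08, and 0 of the 15 had such a p. Uqcrfs1, the iron-sulphur subunit of complex III, was at 10.19, 10.81 and 11.44 in the Stabilization arrays, against a Responder median of 11.26 (lowest 10.99, highest 11.42), and Cox5a, of complex IV, was at 12.48, 13.07 and 13.08, against a Responder median of 13.11 (lowest 12.90). The cholesterol synthesis list split the group further, at 7.66, 7.96 and 9.66 in Stabilization 1, 2 and 3, against a Responder median of 9.09 (lowest 7.59, in Responder 4, and highest 9.54). All 13 of its genes had a lower Stabilization mean, 1 with an unadjusted p under 0.05, and the median difference was -0.43 (-0.29 without the arrays of low correlation). Fdft1, squalene synthase, was at 7.71, 8.36 and 10.29 in the Stabilization arrays, against a Responder median of 9.63 (lowest 8.75, highest 9.99), so 2 arrays lay below and 1 above the whole Responder range. Cyp51, which demethylates lanosterol, was at 7.11, 7.39 and 9.44 in the Stabilization arrays, against a Responder median of 8.98 (lowest 6.99, highest 9.27). The probe sets of Fdft1 ranged from -0.74 to 0.01.

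The remaining higher genes of smallest p were led by Stabilization 1. Lrp12, a member of the low-density lipoprotein receptor family, was at 8.92, 8.31 and 7.79 in Stabilization 1, 2 and 3, against a Responder median of 7.65 (lowest 7.29, highest 8.22). Slc13a3, a dicarboxylate transporter, was at 7.79, 7.18 and 6.80 in the Stabilization arrays, against a Responder median of 6.22 (lowest 5.76, highest 7.15, in Responder 4), with a difference of 0.92 ± 0.24, and 0.81 ± 0.23 without the arrays of low correlation. Prokr2, a prokineticin receptor, was at 7.49, 5.42 and 5.35 in the Stabilization arrays, against a Responder median of 4.96 (highest 5.58), and Tcfl5, a helix-loop-helix factor, was at 7.30, 4.45 and 3.98, against a Responder median of 3.75 (highest 4.45). Nim1k, a protein kinase, was the exception, highest in Stabilization 2, at 3.57, 4.63 and 2.88 in the Stabilization arrays, against a Responder median of 2.94 (highest 3.30). Aldh3b1, an aldehyde dehydrogenase, and Prss46, a serine protease, had differences of 0.48 ± 0.13 and 0.72 ± 0.17.

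Groups that did not overlap were rare. Over the 13 arrays, 17 genes (0.0934%) had all 3 Stabilization values above all Responder values and 24 (0.132%) had all 3 below, 41 genes (0.225%) in either direction. Without the arrays of low correlation there were 150 above (0.824%) and 188 below (1.03%), 1.86% of genes in either direction. Elk3, an ETS-family transcription factor, was at 10.60, 10.19 and 10.21 in Stabilization 1, 2 and 3, against a Responder range of 9.62 to 10.05, though its 4 probe sets ran from -0.06 to 0.44. Defb7, a beta-defensin, was at 2.99, 2.90 and 2.88 in the Stabilization arrays, against 2.50 to 2.79 in Responders, near the lowest value in the table (2.19). Cidea, a lipid droplet protein, was at 4.57, 4.82 and 4.73 in the Stabilization arrays, against 4.87 to 7.01 in Responders. Of the 542 list genes measured, these non-overlapping ones were Slc2a1 above and Ccr8 and Cidea below.

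Transcripts of tissue around the tumour varied widely between single arrays of both groups. Skeletal muscle genes averaged 6.94, 10.60 and 5.24 in Stabilization 1, 2 and 3, against a Responder median of 6.03 (lowest 5.09, highest 12.83, in Responder 4). Their median difference was 0.15 with all arrays, 0.96 without the arrays of low correlation and 0.56 without Stabilization 1, and 0 of 17 had an unadjusted p under 0.05 with all arrays. Acta1, skeletal actin, was at 9.48, 13.46 and 5.09 in the Stabilization arrays, against 5.15 to 14.26 in Responders. Adipocyte genes averaged 6.96, 7.76 and 6.10 in Stabilization 1, 2 and 3, against a Responder median of 7.86 (lowest 5.99, highest 10.23, in Responder 3), and all 11 had a lower Stabilization mean without any at an unadjusted p under 0.05. Adipoq, the adipocyte hormone adiponectin, was at 7.49, 9.38 and 5.80 in the Stabilization arrays, against a Responder median of 10.92 (lowest 5.43, highest 13.32). Cidec, a fat droplet protein, was at 4.39, 5.77 and 4.11 in the Stabilization arrays, against a Responder median of 6.50 (lowest 3.67, highest 10.40). Muscle transcripts lay high beside the T cell genes of Stabilization 2, and their part in its other differences was not tested.

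B cell and plasma cell genes averaged 8.10, 7.47 and 6.55 in Stabilization 1, 2 and 3, against a Responder median of 7.36 (lowest 6.66, highest 11.52, in Responder 3). Jchain, the joining chain of secreted antibody, was at 8.92, 7.75 and 6.00 in the Stabilization arrays, against a Responder median of 8.43 (lowest 5.95, highest 13.62, in Responder 3). Glycam1, a mucin of lymph node venules, was at 5.26, 4.52 and 4.35 in the Stabilization arrays, against 4.33 to 4.98 in 9 Responders and 12.49 in Responder 3. Keratinocyte genes, a sign of skin, averaged 4.75, 4.75 and 4.56 in the Stabilization arrays, against a Responder median of 4.73 (lowest 4.54, highest 5.43). B cell and lymph node list means were thus highest in Responder 3, and Stabilization 1 exceeded the other 9 Responders at both (8.10 and 7.27).

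**Figure D5:**
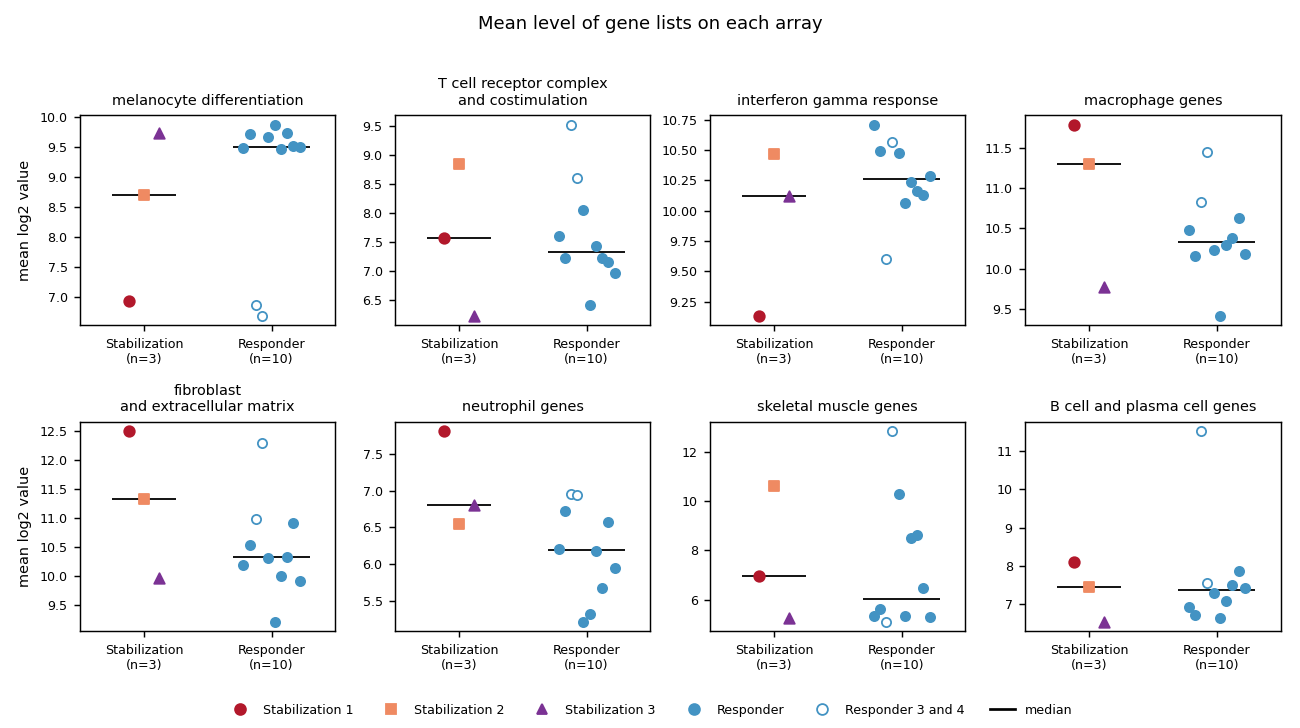
Mean log2 level of 8 gene lists on each array, Stabilization left and Responder right, with group medians as lines and Responders 3 and 4 as open circles. The stabilized tumours span most of the Responder range or more for melanocyte, T cell, macrophage and matrix genes.

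Against tumours that did not respond, the stabilized tumours were likewise not uniform. NonResponder arrays had T cell list means of 5.65 to 6.44, so Stabilization 3 at 6.24 lay inside that range and Stabilization 1 (7.57) and 2 (8.85) above it. Interferon gamma response genes averaged 8.78 to 9.69 in NonResponders, a range that held Stabilization 1 (9.14) and not Stabilization 2 (10.47) or 3 (10.12). The melanocyte list ran from 9.58 to 9.95 in NonResponders, around Stabilization 3 (9.73) and above Stabilization 1 (6.94) and 2 (8.70). Macrophage genes averaged 9.07 to 9.97 in NonResponders, around Stabilization 3 (9.77) and under Stabilization 1 (11.78) and 2 (11.29). Stabilization 3 thus lay inside the NonResponder range for T cell, melanocyte and macrophage genes, and Stabilization 1 for interferon gamma response genes. Responder 6, the array most correlated with Stabilization 3 (0.994), lay inside the NonResponder range for the same 3 lists, at 6.42, 9.87 and 9.42. Responders 2, 5 and 8 lay inside it for melanocyte genes (9.72, 9.67 and 9.74). Responder 3 lay inside it for interferon gamma response genes (9.61), beside Stabilization 1. These are values with no test.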

How the data were processed

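RNA was column-purified, 800 ng were amplified and labelled with biotin, and each sample was hybridised to 1 Affymetrix mouse array, per the labels' protocols. The deposited values are log2 intensities from the authors' RMA normalization (robust multi-array averaging), per the submitters' processing notes, which also name limma; versions are not given in the sources used here. RMA shares information between arrays, so 1 unusual array can move the others slightly. Of 45101 probe sets, 64 controls, 932 with several gene symbols and 9160 unnamed ones were left out; each of 18193 genes was read from the probe set that averaged highest across the 90 arrays.

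The 25 arrays of the title range that holds the Stabilization tumours entered limma 3.58.1 (R 4.3.3; lmFit, eBayes) with a mean per group. P-values are two-sided and Benjamini-Hochberg adjusted over all genes, and genes under 0.05 are called. The fit was tested on simulated data for this comparison over 18193 genes. Noise was drawn independently for each gene and array, and the same change was added to all 3 Stabilization arrays. The fit recovered 34% of changes of 0.5, 74% of 1, and 96% of 2 or 3 (log2), with 6 false calls. The real Stabilization arrays differ from one another and Stabilization 1 stands apart, so these shares cannot be carried over to the deposited data.

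The 41 lists (591 genes, 542 measured), the comparison and the tests were chosen with earlier results of these data known. Genes named are the 15 smallest p-values in each direction (none was called, and 1 is not reported here), up to 4 members of smallest p per list, and Cd274, Pdcd1, Hgf and Cdk4; Bmp2 was added after its values were seen. Of the 192 genes that these choices cover, 88 have several probe sets, and in 15 of these the probe sets disagree in sign. No arrays were identical, and medians of the 25 arrays lay between 5.80 and 5.90. The number of arrays limits precision. Alternatives covered the arrays included, scaling, a filter on dim genes, the choice of probe set, array weights, the variance model and each array left out.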

Additional observations from a re-analysis of the deposited data

Results flagged for a closer look

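Single Responder arrays stood apart from the other 9 in 39 of 129 genes and list means looked at, by a gap to the nearest array, over the group's whole range, above Dixon's 95% critical value. Chance gives about 1 such case in 20. Responder 4 was the array in 23 cases, Responder 3 in 15 and Responder 2 in 1. The 3 Stabilization arrays were not examined this way.

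Responder 4 was the highest Responder, on the log2 scale, for Inhba (6.69), Timp1 (11.63), Thbs1 (10.69), Ptgs2 (8.85), Cd14 (11.24), Atp6v0d2 (9.98), Lox (11.29), Cdh5 (9.63), Flt1 (7.62) and Bmp2 (7.63). It was also the highest for the list means of dedifferentiated melanoma genes (7.69), TGF-beta response (10.04), matrix proteases and inhibitors (9.04), inflammatory cytokines (7.34) and immediate early and stress genes (10.51). It was the lowest Responder for Elk3 (9.62), Tdrp (6.55), Rpa1 (11.11), Tsfm (8.12), Mcm5 (9.46), Rrm2 (9.30), the proliferation list (8.40) and ribosomal proteins (12.62). Stabilization 1 was higher than Responder 4 for Inhba, Timp1, Thbs1, Ptgs2, Cd14, Atp6v0d2, Lox and Flt1, and lower for Cdh5 and Bmp2.

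Responder 3 was the highest Responder for Glycam1 (12.49), Cidea (7.01) and the list means of dendritic cell genes (8.53), B cell and plasma cell genes (11.52), lymph node stroma genes (10.49), mast cell and eosinophil genes (5.72), fatty acid synthesis and oxidation (9.87) and keratinocyte genes (5.43). It was the lowest for Rbm20 (5.93), Fbxo31 (7.67), Klf15 (7.57), Egln3 (6.99), P4ha1 (8.13), hypoxia and glycolysis (9.26) and Schwann cell and nerve genes (6.27). Responder 2 was the highest for Edn1 (6.86). The low hypoxia mean of Responder 3 widens the Responder range at that list, and the difference without it and the other arrays of low correlation is 0.12 at the median.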

How the results depend on the processing

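With all 25 arrays 0 genes were called, and 0 were also called with each of these alternatives: the Stabilization and Responder arrays alone, either with or without the arrays of low correlation, all arrays less those of low correlation, median centring, quantile normalization, no dim genes, the mean of probe sets, the most variable probe set, and trend and robust eBayes. Calls appeared when arrays from other title ranges joined the fit: 20 (14 higher, 6 lower) with a mean per group and title range over all 90 arrays, and 58 (41 higher, 17 lower) with group and title range as additive terms. Array weights gave 4735 (2075 higher, 2660 lower); limma's default weights did not converge, so its gene-by-gene method was used. Leaving out Responders 3 and 4, chosen after seeing the data, gave 13 (11 higher, 2 lower). Leaving out 1 array gave between 0 and 273 called genes and between 0 and 29 called list members, and above 0 only without Stabilization 3. The causes were not tested.

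Genes whose groups did not overlap numbered 41 with all arrays, 338 without the arrays of low correlation, and 48 to 659 when 1 array was left out: 659 without Stabilization 3, 214 without Stabilization 2, 106 without Stabilization 1, 95 without Responder 4 and 67 without Responder 3. Fewer arrays make no overlap more likely by construction.

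Of 88 genes named, 78 kept the sign of their difference under every alternative run, and 10 did not. Without the arrays of low correlation, with or without the other groups in the fit, 4 turned positive: Cd3d (0.073), Ifng (0.12), Pdcd1 (0.19) and Hgf (0.011). Array weights gave 1.21 for Cd3d, 0.87 for Ifng, 1.25 for Pdcd1 and 0.48 for Pdcd1lg2. The additive fit over all arrays gave 0.045 for Cd3d and 0.18 for Pdcd1lg2, the mean of probe sets gave 0.086 for Hgf, and leaving out Responders 3 and 4 gave 0.18 for Glycam1. With 1 array left out the difference ran from -1.13 to 0.35 for Cd3d, -1.25 to 0.20 for Ifng, -1.28 to 0.21 for Pdcd1, -0.43 to 0.20 for Pdcd1lg2, -1.26 to 0.11 for Ifit3, -1.24 to 1.02 for Hgf, -1.51 to 0.34 for Met, -0.88 to 0.0036 for Rrm2, -1.50 to 2.68 for Acta1 and -0.90 to 0.17 for Glycam1. No paired analysis was possible because the labels carry no replicate numbers. With 3 Stabilization arrays, values toward the lowest of the table (Defb7, Nim1k, Ccr8) are also limited by signal over background.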
